A study of Fragaria vesca with 24 samples.

Results

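Leaf-specific genes were defined here in the diploid woodland strawberry, Fragaria vesca, as the 200 of 34006 genes whose level in untreated plants was most clearly higher in the leaf than in the crown in both genotypes. CPM are counts scaled to a library of 1000000 counts. For each gene the mean of log2(CPM + 0.5) over 3 libraries was taken, crown at 0 h was subtracted from leaf at 0 h in ‘Alta’ and in ‘NCGR1363’, and the smaller of the 2 differences was used as the score. The 200 genes with the largest score among the 10230 genes with a mean of at least 10 CPM in both leaf groups at 0 h formed the list. The members were thus selected on measured levels in the 0 h libraries, so the difference between leaf and crown at 0 h is described without a test.

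The study contained 24 RNASeq libraries, 3 in each of 8 groups, with total counts of 12818719 to 18487934. ‘Alta’ is a freezing tolerant accession from the north of Norway and ‘NCGR1363’ a South American accession that is susceptible to cold. All plants were first grown for 5 weeks at 20 °C with an 18 h day. Leaves and crowns of both accessions were then sampled untreated, as 0 h controls, and after 42 d at 2 °C. Plants were raised from runners, so that all plants of an accession were clones of 1 genotype. The plants in the cold were also older and, by the methods of the study, on a shorter day than the controls, so cold, age and day length cannot be told apart. Nothing in the sources used here states whether leaves at 42 d had expanded before or during the cold.

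The leaf is the photosynthetic organ, built mostly of chloroplast-rich mesophyll under an epidermis covered by a cuticle, whereas the strawberry crown is a compressed stem that carries the meristems and vascular tissue and from which the plant regrows after winter. Genes restricted to leaves in flowering plants commonly serve photosynthesis, chloroplast maintenance, the cuticle or the chemical defence of the blade. In many species nuclear genes for photosynthesis are lowered during long exposure to cold, while crowns and other overwintering organs become frost hardy. In bulk tissue a lower share of counts can come from fewer cells of a type or from less RNA per cell, which cannot be told apart.

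The count tables and the reference table used here do not pair the nuclear gene IDs with names. Only 2 members were described, in the study's list of genes in an interval of chromosome 2. FvH4_2g14900 was annotated as an M-type thioredoxin of the chloroplast, a class of small redox proteins that in Arabidopsis switch chloroplast enzymes on in the light. FvH4_2g17500 was annotated as an uncharacterized hydrolase similar to a yeast protein. All other members are given by ID, and a number of isoforms or a coding length is the only property reported for them. Near-identical gene copies can share reads, and their sequences were not compared.

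One library stood apart. The leaf-specific genes took 22.98% of the counts of replicate 3 of ‘Alta’ crowns at 42 d, as that library is labelled, against 0.105% to 0.240% in the other 11 crown libraries and 22.0% to 22.6% in ‘Alta’ leaves at 0 h. Over the 10030 genes at the leaf minimum that were not members, its Pearson's r with the ‘Alta’ leaf libraries at 0 h was 0.953 to 0.979, with ‘Alta’ leaf libraries at 42 d 0.661 to 0.714, and with the other ‘Alta’ crown libraries at 42 d 0.354 to 0.389. These correlations are across genes, which are not independent replicates. The library therefore went against its label, its group was not changed, and it was left out of the results below unless stated. Every pair of other libraries of the same group had an r of at least 0.830, and that lowest value joined ‘NCGR1363’ leaf 42 d replicates 1 and 2.

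Leaf labels were checked with 10 genes annotated for chloroplast functions, of which FvH4_2g14900 is a member, and crown labels with 11 genes annotated for laccases, xylem, cellulose synthesis and cell division. At 0 h 9 of the 10 chloroplast genes were higher in leaf in both genotypes, and 7 and 8 of the 11 crown genes were higher in crown in ‘Alta’ and ‘NCGR1363’. At 42 d these were 10 and 9 of the chloroplast genes and 5 and 8 of the crown genes. Crown genes higher in leaf numbered 4 and 2 at 0 h and 4 and 3 at 42 d. In ‘Alta’ at 42 d the crown genes thus hardly separated the tissues by number. Their summed level there was 176 and 273 CPM in crowns and 77.9 to 128 CPM in leaves. FvH4_2g16100, FvH4_2g12640 and FvH4_2g17120 were at trace level, with group means that reached 0.540 CPM at most. The summed level of the chloroplast genes was 2082 to 2103 CPM in ‘Alta’ leaves and 2271 to 2435 CPM in ‘NCGR1363’ leaves at 0 h. It was 158 to 205 CPM in the 6 crown libraries at 0 h.

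In untreated leaves the 200 genes took more than 1 count in 5. They held 22.4% ± 0.306 (SD, n = 3) of the counts in ‘Alta’ leaves and 21.7% ± 1.32 (SD, n = 3) in ‘NCGR1363’ leaves at 0 h, and 0.148% ± 0.0193 (SD, n = 3) and 0.111% ± 0.00884 (SD, n = 3) in the crowns. In both genotypes the genes ranged from weakly to extremely abundant in leaves, with means of 22.6 to 37644 CPM in ‘Alta’ and 25.7 to 33088 CPM in ‘NCGR1363’ and medians of 228 and 206 CPM. In crowns at 0 h the median member stood at 1.19 CPM in ‘Alta’ and 1.24 CPM in ‘NCGR1363’, and 40 and 35 members had no more than 3 counts in any crown library of the group. The counts were concentrated, as 14 members held 50% of all counts of the list in leaves at 0 h.

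**Figure D1:**
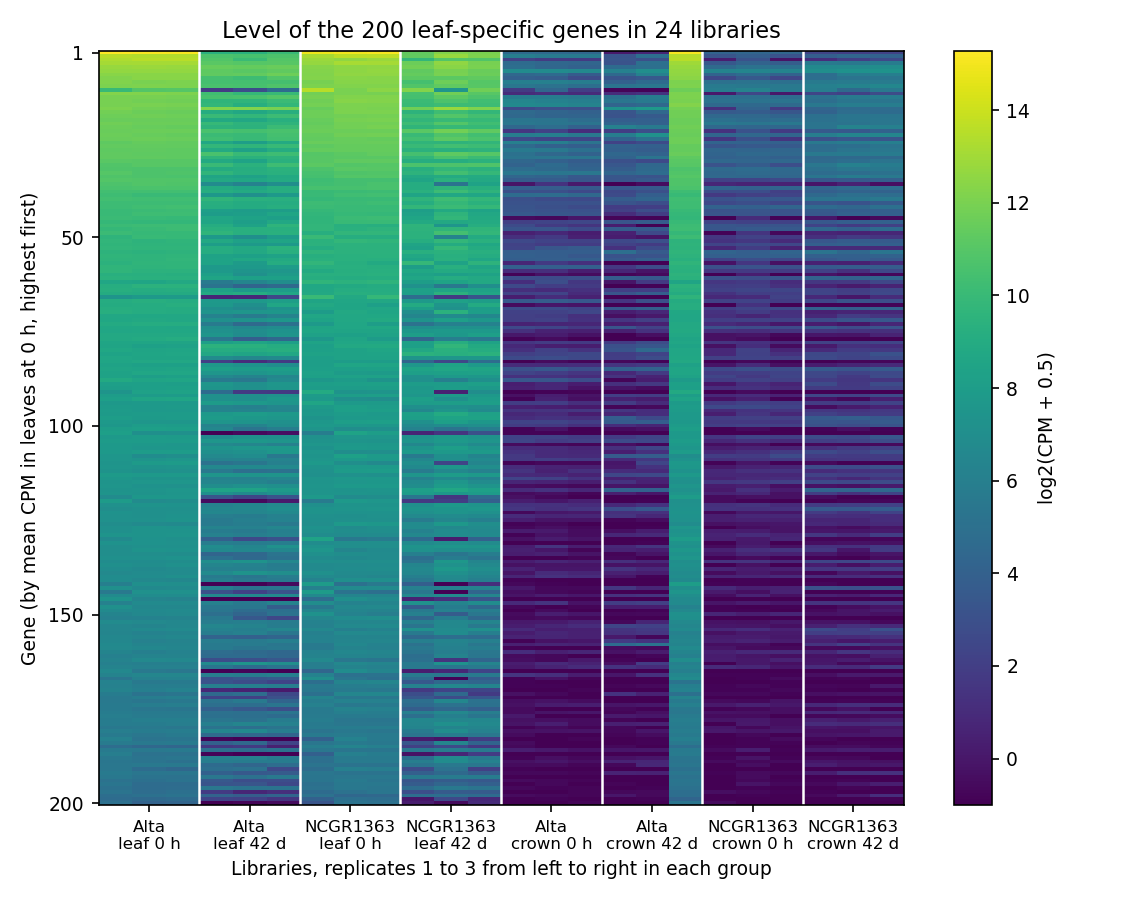
Level of each of the 200 leaf-specific genes (rows, ordered by mean CPM in leaves at 0 h) in the 24 libraries (columns, 3 per group), coloured by log2(CPM + 0.5). Leaves are bright and crowns dark at both times, apart from the library labelled ‘Alta’ crown 42 d replicate 3, whose column resembles ‘Alta’ leaves at 0 h.

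The 5 genes with the largest score spanned a wide range of leaf levels, and 4 of them were at no more than 8.21 CPM in any crown library at 0 h. FvH4_6g50780 stood first with a score of 11.53. Its level in leaves at 0 h was 10023, 12034 and 12068 CPM in the 3 ‘Alta’ libraries and 7371, 6124 and 7413 CPM in ‘NCGR1363’, against 4.22, 3.01 and 2.91 CPM and 0.814, 8.21 and 0.417 CPM in the crowns. The leaf and crown libraries were far from overlapping in both genotypes. FvH4_5g25760 (score 11.05) had 4812, 4645 and 4478 CPM in ‘Alta’ leaves and 3567, 4187 and 3911 CPM in ‘NCGR1363’ leaves, and no more than 4.94 CPM in any crown library at 0 h. FvH4_2g02490 (score 10.24) and FvH4_3g43540 (score 9.78) reached 1089.6, 1008 and 977 CPM and 1740.4, 1838 and 1772 CPM in ‘Alta’ leaves, and neither exceeded 2.10 CPM in a crown library at 0 h.

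FvH4_6g26030, with a score of 10.70, was the most abundant member. It took 39869, 37774 and 35289.9 CPM in ‘Alta’ leaves and 30292, 33321 and 35651 CPM in ‘NCGR1363’ leaves at 0 h, so that a single gene held 3.53% to 3.99% and 3.03% to 3.57% of the counts of a leaf library. In crowns at 0 h it was also measurable, at 23.6, 21.9 and 19.9 CPM in ‘Alta’ and 17.5, 20.3 and 20.3 CPM in ‘NCGR1363’.

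The 2 described members were abundant to moderate in leaves. FvH4_2g14900, the chloroplast thioredoxin, had 825, 748 and 815 CPM in ‘Alta’ and 684, 893 and 822 CPM in ‘NCGR1363’ leaves at 0 h. In crowns it had 5.41, 4.34 and 4.05 CPM and 2.13, 2.67 and 1.39 CPM. FvH4_2g17500, the hydrolase, had 119, 104 and 116 CPM and 109, 122 and 127 CPM in the leaves, and 0.490 to 1.13 CPM in the crowns. The leaf levels of both genes overlapped between the genotypes.

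The limit of the list fell in a continuous range of scores. Just inside it were FvH4_1g14860 (5.36) and FvH4_1g29160 (5.36), and just outside FvH4_3g28150 (5.35) and FvH4_6g52070 (5.34). FvH4_6g52070 had a mean of 695 CPM in ‘Alta’ leaves against 9.95 CPM in crowns, which is a pattern of the same kind as that of the members.

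The members lay on all 7 chromosomes, with 21, 19, 42, 21, 31, 48 and 18 on chromosomes 1 to 7. Chromosome 6 held 24% of the members and 18.4% of the genes at the leaf minimum, and chromosome 2 held 9.50% and 15.5%. Of the members, 32 lay in 15 sets in which the gene numbers of the IDs were at most 50 apart. The largest set had 4 genes, FvH4_3g36920, FvH4_3g36950, FvH4_3g36954 and FvH4_3g36960. Members had simple gene models, as 136 (68%) had 1 isoform in the isoform table, against 38.5% of the genes at the leaf minimum. Of the 64 members with more isoforms, 60 had the same leading isoform in leaves at 0 h and at 42 d. The median coding length was 975 bases in the members and 1291.5 bases in the genes at the leaf minimum. These shares are descriptions of the list and were not tested.

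The first question for libraries that the choice of genes had not used was whether the genes were still leaf-specific after 42 d at 2 °C, and nearly all of them were. All comparisons used edgeR's quasi-likelihood test on the counts of all genes, with TMM scaling between libraries, and a gene was called at a false discovery rate (FDR) of at most 0.05 over all genes tested. A gene was tested if it had at least 0.5 CPM in at least 2 libraries of the comparison. In ‘NCGR1363’ all 200 members were tested and all 200 were higher in leaf than in crown at 42 d, where 28.4% of all genes tested were called higher in leaf and 27.1% lower. In ‘Alta’, with 3 leaf and 2 crown libraries, 192 members were tested and all of these were higher in leaf, against 23.8% of all genes tested. The other 8 members were at or near 0 in both tissues of ‘Alta’ and could not be tested. Many members passed the minimum only through their leaf level, so the counts describe the list and do not measure a rate.

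The size of the tissue difference was large at 42 d as well. Its median over the members tested was 6.22 on the log2 scale in ‘Alta’ and 6.44 in ‘NCGR1363’, against −0.02 and −0.00 over all genes. In 43 and 31 of these members the crown libraries held no more than 3 counts each, and with such genes set at the bound that 3 counts allow the medians were 5.86 and 6.07. On the scale used for the choice, the median difference was 6.80 at 0 h and 5.37 at 42 d in ‘Alta’, and 6.72 and 5.28 in ‘NCGR1363’. Only 19 and 17 members had a larger difference at 42 d than at 0 h, and because the largest differences at 0 h were selected, a smaller value at 42 d is partly what the choice favours. With the library labelled ‘Alta’ crown 42 d replicate 3 in the comparison, no member was called in ‘Alta’, and the median became −0.07.

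**Figure D2:**
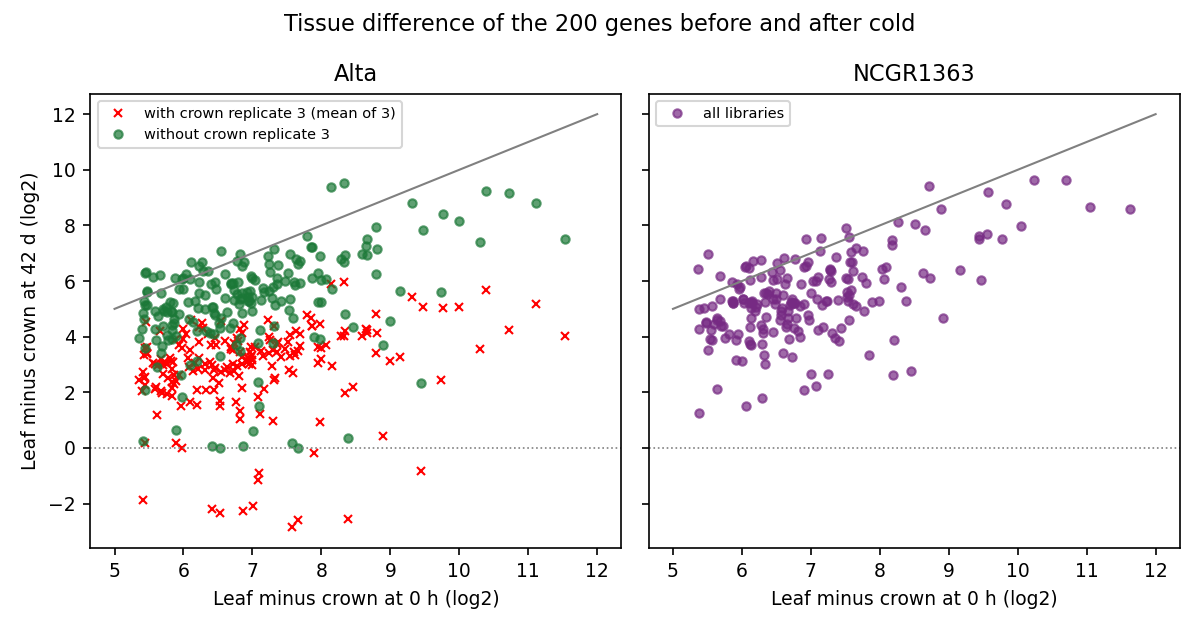
Leaf minus crown in mean log2(CPM + 0.5) for each of the 200 genes (1 point a gene) at 0 h (horizontal axis) and 42 d (vertical axis) in ‘Alta’ (left) and ‘NCGR1363’ (right), with the diagonal of equal difference. Most points lie above 0 and below the diagonal, with medians of 5.37 in ‘Alta’ and 5.28 in ‘NCGR1363’ at 42 d, and the red crosses show ‘Alta’ with the library labelled crown replicate 3 included.

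FvH4_1g08531 and FvH4_6g34740 had the largest fitted tissue differences in ‘Alta’ at 42 d. FvH4_1g08531 had 356, 245 and 550.5 CPM in the ‘Alta’ leaves and no count in the 2 crown libraries, at least 1949-fold higher in leaf if a crown library at the floor of 3 counts is assumed (edgeR FDR = 8.61e-05). FvH4_6g34740 had 206, 138 and 391 CPM in the leaves and again no count in the crowns, which gives at least 1244-fold (edgeR FDR = 0.000209). Neither was called once the library labelled crown replicate 3 was added, at log2 differences of 0.13 and −0.0285.

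In ‘NCGR1363’ FvH4_6g34740 was again among the 2 largest. It had 502, 176 and 500.1 CPM in leaves and a single count in the 3 crown libraries together, a ratio of 19112 with a 95% exact counting interval of 3430 to 754939 (edgeR FDR = 2.56e-05). FvH4_3g38410 was uneven among the leaves, at 228, 0.879 and 128 CPM, and had no count in the crowns, which gives at least 628-fold (edgeR FDR = 0.0281). Its call was lost in 4 of 6 fits that left out 1 library, at FDR of 0.063, 0.063, 0.060 and 0.074 without crown 42 d replicate 1, 2 or 3 or leaf 42 d replicate 3.

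The second question was how the genes responded to cold in the leaf. In ‘Alta’ nearly the whole list was lower after 42 d. The share of counts in the 200 genes was 6.67%, 5.92% and 6.999% in the 3 libraries at 42 d, against 22.6%, 22.5% and 22.0% at 0 h. Of the 200 members 184 were lower, where 28.4% of all genes tested were called lower, and 2 were higher, where 27.4% were called higher. The median change was −1.67 on the log2 scale, with quartiles of −2.40 and −1.10, while the median over all genes was 0.00. The libraries at 42 d lay below all libraries at 0 h for 175 members, against 21.6% of all genes tested. Members were chosen for high values in these 0 h leaf libraries, so a fall is partly what the choice favours.

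In ‘NCGR1363’ leaves fewer members passed the test and the median fall was smaller. The share of counts was 8.46%, 12.1% and 9.89% at 42 d, against 20.2%, 22.1% and 22.8% at 0 h. Here 78 members were lower, against 14.3% of all genes tested, 5 were higher, against 17%, and 117 did not pass the test. The median change was −0.83, with quartiles of −1.59 and −0.26, and over all genes 0.01. The number of calls depended on single libraries: it was 144 without ‘NCGR1363’ leaf 42 d replicate 2, and 52, 50 and 46 without leaf 0 h replicate 2, leaf 0 h replicate 3 and leaf 42 d replicate 3, with medians of −1.06, −0.77, −0.81 and −0.77. Calls over all genes were 7487, 2815, 2982 and 2673 in these fits, against 5784 with none left out. Leaf 42 d replicate 2 was also the library with the highest share of counts in the members.

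**Figure D3:**
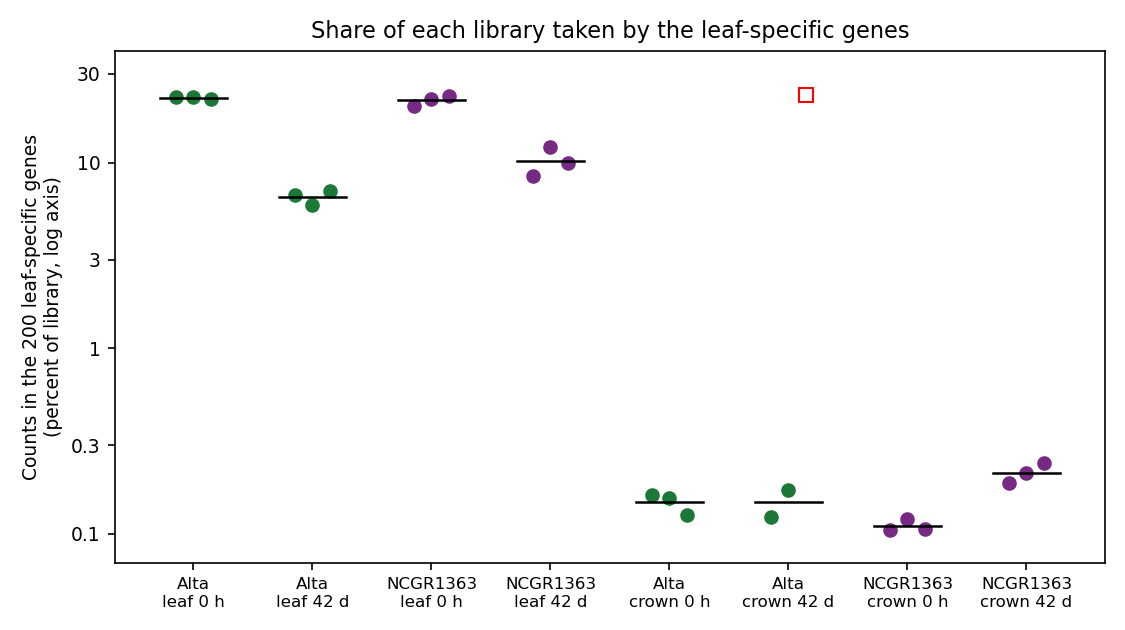
Percent of all counts of a library that fell in the 200 leaf-specific genes (log axis), for each library as 1 point by group, with the group mean as a bar. Leaf libraries at 0 h lie at 20.2% to 22.8%, ‘Alta’ leaves at 42 d at 5.92% to 6.999%, ‘NCGR1363’ leaves at 42 d at 8.46% to 12.1% and crowns below 0.25%, and the open red square is the library labelled ‘Alta’ crown 42 d replicate 3, left out of its mean.

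All 78 members that were lower in ‘NCGR1363’ leaves were among the 184 that were lower in ‘Alta’ leaves. A further 104 were called lower in ‘Alta’ and not called in ‘NCGR1363’, 2 were lower in ‘Alta’ and higher in ‘NCGR1363’, and 11 were called in neither. Shares over all genes are not given for these joint counts, so they only describe the list. The fall was over 8-fold and called for 32 members in ‘Alta’, against 3.22% of all genes tested, and for 14 in ‘NCGR1363’, against 1.42%. The 10 most abundant members together held 9.90% to 10.3% of the counts in ‘Alta’ leaves at 0 h and 1.70% to 2.09% at 42 d, and in ‘NCGR1363’ leaves 8.16% to 9.85% and 2.37% to 4.12%. The summed level of the chloroplast genes of the label check went from 2082 to 2103 CPM to 1234 to 1351 CPM in ‘Alta’. In ‘NCGR1363’ it went from 2271 to 2435 CPM to 1504 to 2169 CPM. In ‘Alta’ leaves FvH4_2g14900, itself a member, fell from a mean of 796.1 to 375.7 CPM, and FvH4_2g12490 from 712.8 to 285.6 CPM. FvH4_2g11590, FvH4_2g11660, FvH4_2g11680 and FvH4_2g15511 rose there. In ‘NCGR1363’ leaves FvH4_2g11590, FvH4_2g11660, FvH4_2g13460, FvH4_2g14791 and FvH4_2g15511 rose in mean CPM and the others fell. The part of the chloroplast genes in the result was not tested.

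FvH4_6g26030, the most abundant member, fell in the leaves of both genotypes. In ‘Alta’ leaves it had 639.5, 647 and 1044 CPM at 42 d, a log2 change of −5.96 ± 0.24 (SE), FDR = 4.44e-06 by edgeR. In ‘NCGR1363’ leaves it had 2602, 4622 and 4109.8 CPM, a change of −3.29 ± 0.46 (SE), FDR = 0.00443 by edgeR. Libraries of the 2 times did not overlap in either genotype, and the lowest ‘NCGR1363’ library at 42 d was above the highest ‘Alta’ library.

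The fall of the other leading genes differed from gene to gene. FvH4_6g50780 had 1842, 1116 and 1945 CPM in ‘Alta’ and 877, 1907 and 1856 CPM in ‘NCGR1363’ leaves at 42 d, with changes of −3.16 ± 0.22 (SE), FDR = 2.55e-05, and −2.33 ± 0.41 (SE), FDR = 0.00956, by edgeR. FvH4_3g43540 had 114, 73.1 and 133 CPM in ‘Alta’ and 547, 36.4 and 338 CPM in ‘NCGR1363’ at 42 d, so that the ‘NCGR1363’ libraries ranged on both sides of those of ‘Alta’. FvH4_5g25760 had 1258, 932 and 1025 CPM and 1513, 3389.5 and 2134 CPM, and all 3 ‘NCGR1363’ libraries were above those of ‘Alta’. FvH4_2g02490 kept 394, 337 and 290.1 CPM in ‘Alta’ and 385, 873 and 475 CPM in ‘NCGR1363’, where replicate 2 was again high.

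The thioredoxin gene FvH4_2g14900 fell in ‘Alta’ to 448, 317 and 362 CPM, a log2 change of −1.44 ± 0.14 (SE), FDR = 0.000113 by edgeR. In ‘NCGR1363’ it had 559, 879 and 647 CPM at 42 d, overlapping with 0 h, and the change of −0.36 ± 0.28 (SE), FDR = 0.365 by edgeR did not pass the test. The hydrolase gene FvH4_2g17500 followed the same order, with 69.0, 67.0 and 60.6 CPM in ‘Alta’ (log2 change −1.13 ± 0.11 (SE), FDR = 0.000117 by edgeR) and 98.3, 201 and 132 CPM in ‘NCGR1363’ (log2 change 0.12 ± 0.33 (SE), FDR = 0.814 by edgeR). For both genes the ‘Alta’ leaves were lower after cold, and those of ‘NCGR1363’ overlapped with their 0 h level.

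The largest fitted falls were of genes that disappeared from ‘Alta’ leaves. FvH4_6g11750 had 162, 82.9 and 76.6 CPM at 0 h and no count in the 3 libraries at 42 d, at least 489.9-fold lower if a library at the floor of 3 counts is assumed (edgeR FDR = 6.19e-05). Its neighbour by ID, FvH4_6g11740, had 95.2, 47.6 and 43.0 CPM at 0 h and a single count in the 3 libraries at 42 d, a ratio of 2656 with a 95% exact counting interval of 476 to 104927 (edgeR FDR = 1.48e-05). Both were among the 8 members at or near 0 in ‘Alta’ at 42 d. The other 6 were FvH4_4g29250, its neighbour FvH4_4g29240, FvH4_2g40270, FvH4_6g37530, FvH4_6g15790 and FvH4_5g03980, named for this after their values were seen.

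Each of these 8 genes had counts in at least 2 of the 3 ‘NCGR1363’ leaf libraries at 42 d. Their means there were 0.799 to 6.94 CPM, after 26.1 to 223 CPM at 0 h. FvH4_4g29250 had 58.8, 343 and 266 CPM at 0 h and 1.14, 2.30 and 7.84 CPM at 42 d, a log2 change of −6.07 ± 1.02 (SE), FDR = 0.00806 by edgeR. FvH4_4g02370 fell most by the fitted value, from 1037, 449.8 and 911 CPM to 27.2, 2.97 and 8.77 CPM (−6.21 ± 0.87 (SE), FDR = 0.00451, by edgeR). In ‘Alta’ the same gene had 173, 224 and 238 CPM at 0 h and 1.21, 1.33 and 4.95 CPM at 42 d. The levels in ‘NCGR1363’ leaves at 0 h varied more than 2-fold between replicates for both genes.

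Few members rose. In ‘Alta’ these were FvH4_5g04960, from 67.0, 65.6 and 65.2 CPM to 109.7, 179 and 129 CPM (0.73 ± 0.19 (SE), FDR = 0.0119, by edgeR), and FvH4_3g17266, from 363, 303 and 322 CPM to 702, 657 and 549 CPM (0.60 ± 0.14 (SE), FDR = 0.00761, by edgeR). Neither was called when all 23 libraries were fitted together, with FDR of 0.177 and 0.226. Of the 5 members that rose in ‘NCGR1363’ leaves, the 2 largest were FvH4_6g36350, from 51.6, 44.2 and 44.2 CPM to 89.7, 145 and 101 CPM (1.11 ± 0.26 (SE), FDR = 0.0232, by edgeR), and FvH4_3g16830, from 173, 164 and 170.2 CPM to 295, 423 and 298 CPM (0.84 ± 0.24 (SE), FDR = 0.0389, by edgeR). Libraries of the 2 times did not overlap for these 4 genes, which was a condition for naming them. Leaving out single libraries ended the call of FvH4_6g36350 and of FvH4_3g16830 in 4 of 6 fits each: without ‘NCGR1363’ leaf 0 h replicate 1, 2 or 3 or leaf 42 d replicate 3 the FDR was 0.056, 0.089, 0.088 and 0.056 for the first and 0.094, 0.126, 0.114 and 0.070 for the second.

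The difference between the 2 cold responses was tested as an interaction over the 12 leaf libraries. For 77 members the change in ‘NCGR1363’ minus the change in ‘Alta’ was above 0, where 10.6% of all genes tested were called in that direction, and for no member was it called below 0, where 7.07% were. DESeq2 also called none below 0, and 95 above. By DESeq2 2321 of 19215 genes were called above 0 and 2160 below. The median over the members was 0.92, with quartiles of 0.58 and 1.28. Over all genes it was 0.07, with quartiles of −0.46 and 0.64. For 189 of the 200 genes the estimate was above 0. The 0 h leaf libraries of both genotypes, which enter the test, took part in the choice of the genes. The count was 49, 51 and 50 without ‘Alta’ leaf 0 h replicate 2, ‘Alta’ leaf 0 h replicate 3 and ‘NCGR1363’ leaf 0 h replicate 3, with medians of 0.94, 0.93 and 0.94. Calls over all genes were 1980, 2003 and 2115 in these fits, against 3396 with none left out.

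**Figure D4:**
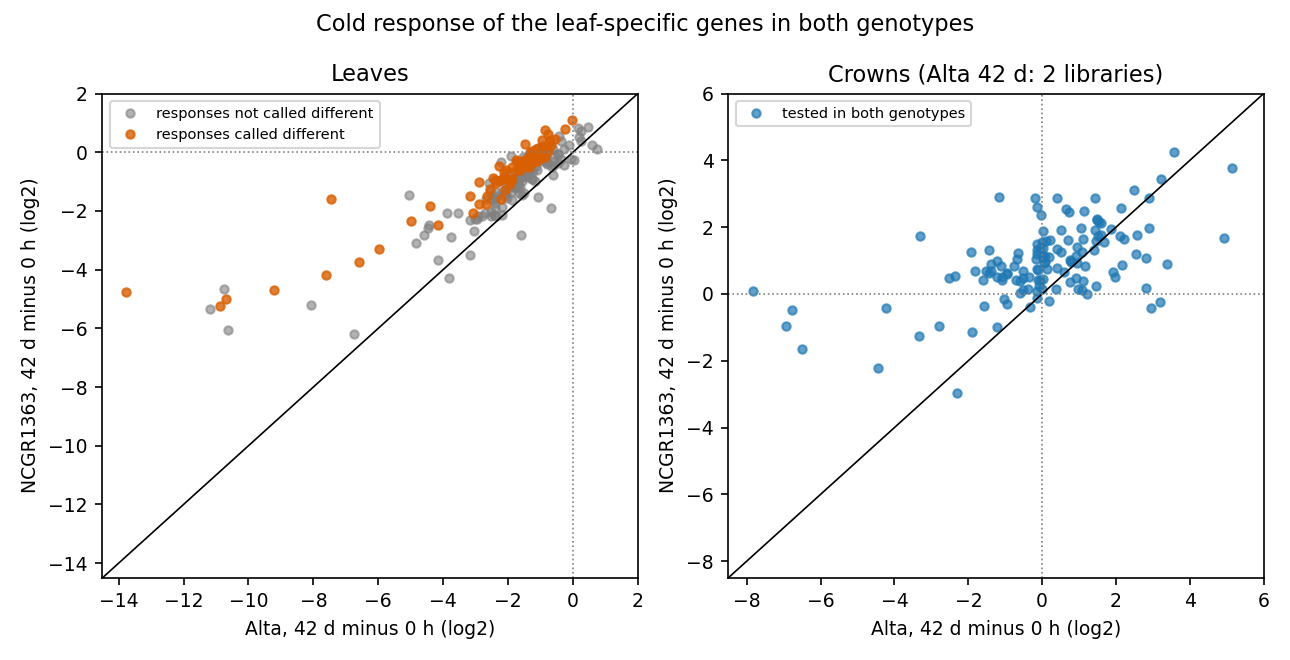
Log2 change from 0 h to 42 d by edgeR in ‘Alta’ (horizontal axis) and ‘NCGR1363’ (vertical axis) for each member in leaves (left, 200 genes) and crowns (right, the 135 genes tested in both genotypes), with the diagonal of equal change. In leaves 189 points lie above the diagonal and the 77 orange points are the genes whose responses were called different, while in crowns the points spread on both sides of 0 in ‘Alta’ and mostly above 0 in ‘NCGR1363’.

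FvH4_6g08720 and FvH4_6g11750 had the largest interactions among the members called. FvH4_6g08720 had 1024, 1972 and 1997 CPM in ‘Alta’ leaves at 0 h and 3.21, 6.79 and 26.4 CPM at 42 d. In ‘NCGR1363’ leaves it had 11806, 4131 and 5695 CPM at 0 h and 4973, 188 and 3436 CPM at 42 d, where replicate 2 lay far below the others. The difference between the responses was 5.90 ± 1.40 (SE), FDR = 0.0171 by edgeR, and it was called in each of the 12 fits that left out 1 library. FvH4_6g11750 was at 0 in ‘Alta’ at 42 d and had 0.999, 1.76 and 8.93 CPM in ‘NCGR1363’, so its fitted difference of 9.11 ± 2.49 (SE), FDR = 0.0371 by edgeR depends on the prior count. It lost the call in 9 of the 12 fits without 1 library: without any 1 of the 6 ‘Alta’ leaf libraries (FDR of 0.060 to 0.071), and without ‘NCGR1363’ leaf 0 h replicate 2 or 3 or leaf 42 d replicate 3 (FDR of 0.050, 0.066 and 0.068). For the thioredoxin gene FvH4_2g14900 and the hydrolase gene FvH4_2g17500 the interaction was 1.10 ± 0.32 (SE), FDR = 0.0393, and 1.28 ± 0.37 (SE), FDR = 0.0362, by edgeR. FvH4_6g26030 had 2.69 ± 0.45 (SE), FDR = 0.00372, and FvH4_6g50780, at 0.86 ± 0.47 (SE), FDR = 0.227, did not pass the test.

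The leaf libraries at 0 h chose the members, so the genotype values at 0 h are given as a description and nothing is read from their counts of calls. The share of counts overlapped between ‘Alta’ and ‘NCGR1363’. Of the 200 members 38 were lower in ‘NCGR1363’, against 9.31% of all genes tested, 5 were higher, against 9.4%, and 157 did not pass the test. The median difference was −0.11, with quartiles of −0.36 and 0.07. The number of calls was 103 without ‘NCGR1363’ leaf 0 h replicate 1, and 15, 14, 21 and 23 without ‘Alta’ replicates 2 and 3 and ‘NCGR1363’ replicates 2 and 3. With the replicate number as a block it was 2, and with all 23 libraries in 1 fit it was 15, so it is not a stable count. Calls over all genes moved too, from 3426 to 6228 without ‘NCGR1363’ leaf 0 h replicate 1, 601 with the block and 4138 in 1 fit.

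The genes highest in ‘NCGR1363’ at 0 h were 2 that also appear above. By the edgeR fit FvH4_6g08720 was higher by 2.05 ± 0.42 (SE) and FvH4_4g02370 by 1.86 ± 0.30 (SE) on the log2 scale. All 3 ‘NCGR1363’ libraries were above all 3 ‘Alta’ libraries for both genes, as the choice of named genes required. The 2 genes furthest in the other direction were FvH4_5g09190, with 297, 369 and 372 CPM in ‘Alta’ and 229, 138 and 128 CPM in ‘NCGR1363’, a log2 difference of −1.13 ± 0.21 (SE), and FvH4_5g14950, with 468, 371 and 379 CPM and 195, 245 and 167 CPM, a log2 difference of −1.06 ± 0.17 (SE). These levels also did not overlap, by the same condition.

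After 42 d the genotype difference ran in 1 direction. Neither group of libraries had taken part in the choice of the genes. The share of counts in the members was higher in each ‘NCGR1363’ leaf library (8.46% to 12.1%) than in each ‘Alta’ leaf library (5.92% to 6.999%). Of the 200 members 50 were higher in ‘NCGR1363’, against 7.38% of all genes tested, and none was lower, against 7.85%. DESeq2 called 76 higher and none lower. By DESeq2 2317 of 18562 genes were called higher and 2181 lower. In ‘Alta’ 6 members had no more than 3 counts in any library and passed the minimum only through ‘NCGR1363’. The median difference was 0.65, with quartiles of 0.43 and 0.94, and 0.00 over all genes. The ‘NCGR1363’ libraries lay above all ‘Alta’ libraries for 108 members, against 14.9% of all genes tested, and below them for 1, against 22.4%. The summed level of the crown genes of the label check was 499, 48.8 and 314 CPM in the ‘NCGR1363’ leaves at 42 d and 117, 77.9 and 128 CPM in those of ‘Alta’, and its part in the result was not tested.

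The direction of this difference was steadier than the number of calls. Without ‘Alta’ leaf 42 d replicates 1, 2 or 3 or ‘NCGR1363’ replicate 3 the calls were 8, 2, 13 and 1, with medians of 0.68, 0.59, 0.65 and 0.74. Without ‘NCGR1363’ replicate 2, the library with the highest share of counts in the members, the calls were 72 and the median was 0.38. With all 23 libraries in 1 fit, which share 1 estimate of the spread, 114 members were higher and none was lower. That fit called 3929 of 18562 genes higher and 3305 lower. Calls over all genes without the single libraries were 1190, 809, 1303, 570 and 5512 in the order given, against 2827 with none left out.

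FvH4_6g08720 had the largest difference among members with counts in both genotypes at 42 d, 7.85 ± 1.51 (SE), FDR = 0.0217, by edgeR. FvH4_6g11750 was at 0 in ‘Alta’ and at least 17.8-fold higher in ‘NCGR1363’ if ‘Alta’ libraries at the floor of 3 counts are assumed (edgeR FDR = 0.0466). Neither call was stable. Without ‘Alta’ replicate 1 or 2 or ‘NCGR1363’ replicate 3 the FDR of FvH4_6g08720 was 0.075, 0.099 and 0.073, and without ‘Alta’ replicates 1, 2 or 3 or ‘NCGR1363’ replicate 3 that of FvH4_6g11750 was 0.103, 0.111, 0.097 and 0.076. FvH4_6g26030 was higher by 2.35 ± 0.37 (SE), FDR = 0.0126, by edgeR, and the lowest ‘NCGR1363’ library held more than the highest ‘Alta’ library. For the thioredoxin and hydrolase genes the ‘NCGR1363’ libraries also lay above those of ‘Alta’, but the differences of 0.96 ± 0.28 (SE), FDR = 0.0676, and 1.21 ± 0.33 (SE), FDR = 0.0565, by edgeR did not pass the test. For FvH4_6g50780 the libraries of the genotypes overlapped, at a difference of 0.00 ± 0.40 (SE) by edgeR.

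**Figure D5:**
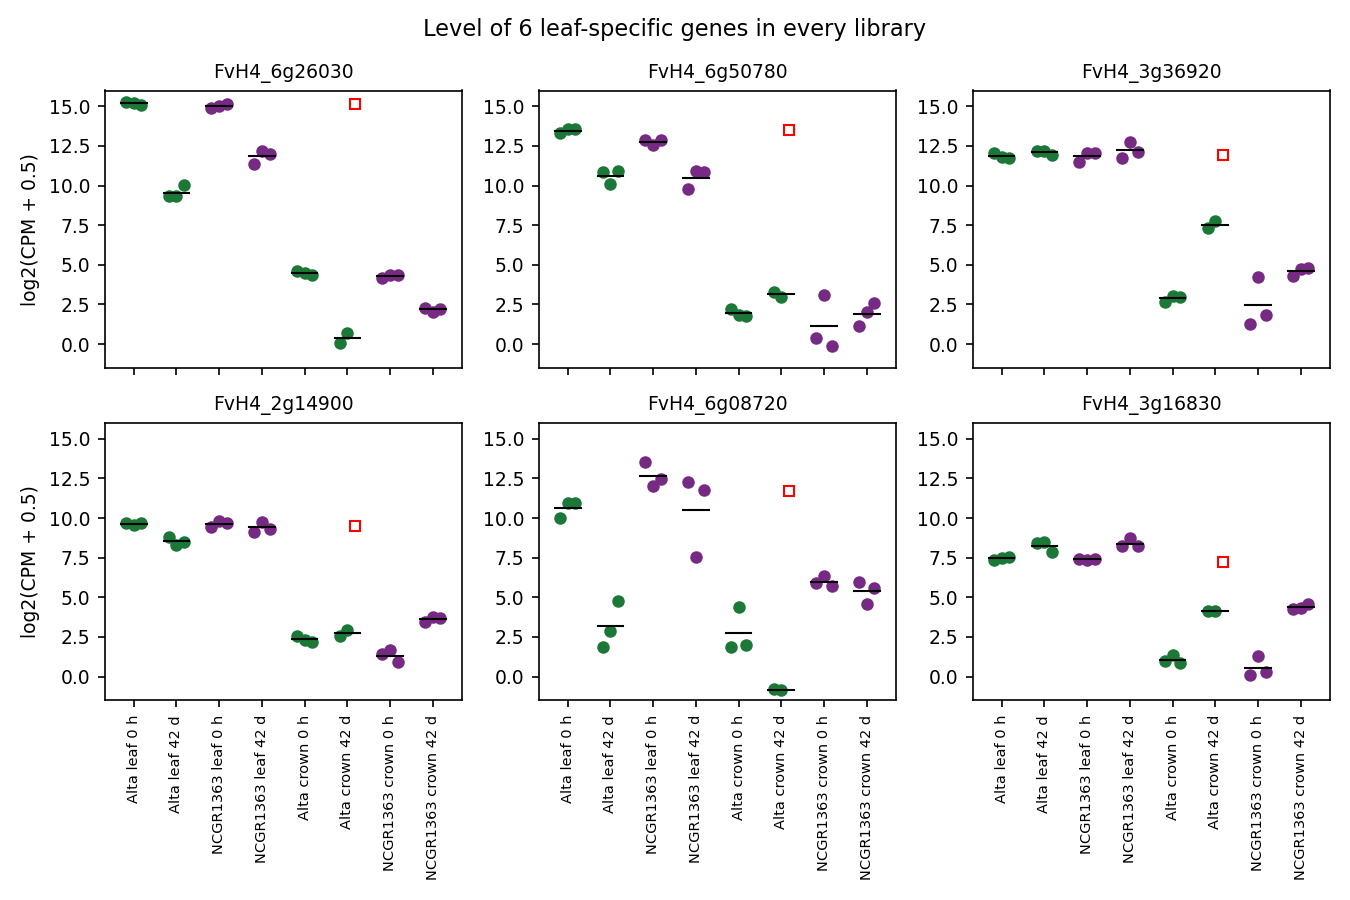
Level of 6 leaf-specific genes as log2(CPM + 0.5) in each library (points, ‘Alta’ green, ‘NCGR1363’ purple) with the group mean as a bar, and the library labelled ‘Alta’ crown 42 d replicate 3 as an open red square left out of its mean. FvH4_6g26030 and FvH4_6g08720 fall further in ‘Alta’ than in ‘NCGR1363’ leaves, FvH4_3g36920 and FvH4_3g16830 rise in ‘Alta’ crowns, and FvH4_2g14900 falls in ‘Alta’ leaves only by the test.

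The third question was what the leaf-specific genes did in the crown, where the levels of most were low at both times. The share of counts in the 200 genes stayed at 0.148% in ‘Alta’ crowns (0.123% and 0.173% in the 2 libraries at 42 d, 0.126% to 0.161% at 0 h). In ‘NCGR1363’ crowns it was 0.105% to 0.121% at 0 h and 0.188% to 0.240% at 42 d, so that the libraries of the 2 times did not overlap. The median member had 1.55 CPM in ‘Alta’ and 2.38 CPM in ‘NCGR1363’ crowns at 42 d. The genes were chosen for low levels in crowns at 0 h, so a rise is partly what the choice favours, and 58 members in ‘Alta’ and 48 in ‘NCGR1363’ were too low to be tested. Of those tested, 8 in ‘Alta’ and 6 in ‘NCGR1363’ had no more than 3 counts per library at 1 of the times. They passed the minimum only through the other time, so the counts of calls describe the list.

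In ‘Alta’ crowns the members went both ways. Of the 142 tested 44 were higher at 42 d, where 27.7% of all genes tested were called higher, and 28 were lower, where 30% were. The median change was 0.06, so the list as a whole lay close to all genes, whose median was −0.00. With the library labelled replicate 3 included, 1 member was called, higher, where 357 of 19104 genes were, and the median became 6.16. The sign of so small a median was not stable: it was −0.13, with 35 members higher and 39 lower, without ‘Alta’ crown 42 d replicate 2, and −0.11 by column totals, under which the median of all genes was −0.17. In ‘NCGR1363’ crowns more members rose. Of the 152 tested 92 were higher, against 29.1% of all genes tested, and 8 were lower, against 29.8%, with a median of 0.91. Of the 135 members tested in both genotypes 33 rose in both crowns, which is 33 of the 44 in ‘Alta’ and 33 of the 92 in ‘NCGR1363’, where 17.9% of all genes tested in both were called higher in both. A further 5 were lower in both, against 19.4%, and 13 were higher in ‘NCGR1363’ and lower in ‘Alta’, against 2.38%.

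FvH4_6g29730 and FvH4_3g36920 rose most in ‘Alta’ crowns. FvH4_6g29730 had 0.858, 1.12 and 0.995 CPM at 0 h and 25.6 and 36.7 CPM at 42 d (5.14 ± 0.22 (SE), FDR = 4.11e-05, by edgeR), which brought it close to the 51.4, 53.0 and 41.2 CPM of ‘Alta’ leaves at 42 d. FvH4_3g36920 had 5.67, 7.71 and 7.39 CPM at 0 h and 158 and 217 CPM at 42 d (4.93 ± 0.19 (SE), FDR = 3.05e-05, by edgeR), against 4661, 4643 and 3976 CPM in the leaves. Both genes rose in the crown, whereas in ‘Alta’ leaves FvH4_6g29730 changed by −1.22 ± 0.16 (SE), FDR = 0.000489, and FvH4_3g36920 by −0.13 ± 0.14 (SE), FDR = 0.478, by edgeR. When the library labelled replicate 3 was added, the first remained called (6.02, FDR = 0.0117) and the second did not (8.25, FDR = 0.0573, by edgeR).

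FvH4_3g36920 belongs to the largest set of neighbouring members, and the 4 genes of the set did not behave alike. FvH4_3g36920 held 4303, 3562 and 3487 CPM in ‘Alta’ and 2924, 4283 and 4187 CPM in ‘NCGR1363’ leaves at 0 h, and 3483, 6934 and 4487 CPM in ‘NCGR1363’ leaves at 42 d. FvH4_3g36950 went from 938, 898 and 891 CPM to 378, 278 and 425 CPM in ‘Alta’ leaves (−1.70 ± 0.15 (SE), FDR = 7.22e-05, by edgeR). FvH4_3g36954 had 99.2, 121 and 45.4 CPM and FvH4_3g36960 48.7, 40.3 and 44.5 CPM in ‘Alta’ leaves at 42 d, after 186, 122 and 134 CPM and 99.9, 91.9 and 86.1 CPM at 0 h. In ‘Alta’ crowns at 42 d FvH4_3g36954 had 12.4 and 13.6 CPM, after 2.71, 1.54 and 1.42 CPM, while FvH4_3g36960 stayed at no more than 3 counts in a library.

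Among the members that fell in ‘Alta’ crowns, FvH4_1g08531 and FvH4_4g02370 had no count in either library at 42 d. FvH4_1g08531 had 1.19, 2.94 and 1.85 CPM at 0 h, at least 10.1-fold more than a library at the floor of 3 counts (edgeR FDR = 0.0039). FvH4_4g02370 had 0.726, 1.61 and 0.924 CPM, at least 5.52-fold (edgeR FDR = 0.0059). Both changes turned, when the library labelled replicate 3 was added, into rises of 7.70 and 8.50 on the log2 scale that were not called (FDR = 0.249 and 0.225, by edgeR). FvH4_6g26030 fell in the crowns as in the leaves, to 0.571 and 1.14 CPM in ‘Alta’ (−4.46 ± 0.26 (SE), FDR = 8.96e-05, by edgeR) and 4.45, 3.63 and 4.16 CPM in ‘NCGR1363’ (−2.21 ± 0.13 (SE), FDR = 4.94e-07, by edgeR).

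In ‘NCGR1363’ crowns FvH4_3g16830 rose from 0.564, 2.00 and 0.695 CPM to 18.8, 19.4 and 23.2 CPM (4.26 ± 0.29 (SE), FDR = 1.08e-06, by edgeR). This gene also rose in ‘Alta’ crowns, from 1.52, 2.10 and 1.28 CPM to 17.2 and 17.1 CPM (3.56 ± 0.22 (SE), FDR = 9.65e-05, by edgeR), and in ‘NCGR1363’ leaves, as given above. FvH4_1g25430 had 1 count in the 3 crown libraries at 0 h and 3, 8 and 30 at 42 d, 41 in all, a ratio of 38.8 with a 95% exact counting interval of 6.58 to 1568 (edgeR FDR = 0.00561). Replicate 3 held 30 of these 41 counts, and without 42 d replicate 2 or 3 the gene was too low to be tested, while the other 4 fits that left out 1 library gave log2 changes of 4.36 to 6.74. The 2 members that fell most were at trace level. FvH4_1g11390 had 28 counts at 0 h and 1 at 42 d, a ratio of 29.6 (4.90 to 1211, edgeR FDR = 0.00234), and FvH4_6g43720 went from 0.939, 0.601 and 1.18 CPM to 0.119, 0.0725 and 0.116 CPM (−2.999 ± 0.54 (SE), FDR = 0.000759, by edgeR). Neither fall was called when all 23 libraries were fitted together, at FDR of 0.312 and 0.235.

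The thioredoxin gene rose in crowns while it fell in ‘Alta’ leaves. FvH4_2g14900 had 10.3, 12.8 and 12.4 CPM in ‘NCGR1363’ crowns at 42 d, a change of 2.53 ± 0.21 (SE), FDR = 3.66e-06, by edgeR. In ‘Alta’ crowns it had 5.49 and 7.19 CPM, a change of 0.64 ± 0.21 (SE), FDR = 0.0438, by edgeR. The study reports a far larger rise of this gene in ‘Alta’ crowns, which did not pass its test. The library labelled replicate 3, left out here, held 728 CPM. FvH4_2g17500 rose by 1.75 ± 0.29 (SE), FDR = 0.000453, in ‘NCGR1363’ and by 1.59 ± 0.46 (SE), FDR = 0.0253, in ‘Alta’ crowns, by edgeR. Of the 44 members higher in ‘Alta’ crowns at 42 d, 39 (88.6%) were lower in ‘Alta’ leaves, where 184 of all 200 members were lower, and of the 92 higher in ‘NCGR1363’ crowns, 28 (30.4%) were lower in ‘NCGR1363’ leaves, where 78 of all 200 were. These shares were therefore no higher than those of the whole list. Over all genes called higher in the crowns, 6.84% and 4.81% were called lower in the leaves. The crown levels of most members remained far below those of the leaf at 42 d. On the scale used for the choice the median leaf minus crown difference of all members was 5.37 in ‘Alta’ and 5.28 in ‘NCGR1363’. The smallest differences in ‘Alta’ were −0.0175 to 0.611, in the 8 members at or near 0 in both tissues, and 0.645 in FvH4_6g29730. The summed level of the chloroplast genes was 183 to 206 CPM in ‘NCGR1363’ crowns at 42 d and 158 to 164 CPM at 0 h. In ‘Alta’ crowns, where the share of counts in the members stayed at 0.148%, it was 231 and 275 CPM at 42 d and 190 to 205 CPM at 0 h. The largest change there was in FvH4_2g11660, from a mean of 58.17 to 139.6 CPM. FvH4_2g12490 fell there from 23.03 to 6.323 CPM, and FvH4_2g13460, FvH4_2g14190, FvH4_2g15511 and FvH4_2g16010 also fell, while the other chloroplast genes rose. The summed level of the crown genes went from 751 to 908 CPM to 176 and 273 CPM in ‘Alta’ crowns and from 879 to 960 CPM to 573 to 781 CPM in ‘NCGR1363’ crowns. The part of these changes in the result was not tested.

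Genotypes also differed in crowns at 42 d, in libraries that had no part in the choice. Of the 146 members tested 61 were higher in ‘NCGR1363’, against 25.9% of all genes tested, and 18 were lower, against 23.9%. Some members passed the minimum only through the ‘NCGR1363’ crowns, such as FvH4_2g31130 and FvH4_4g02370, which had no count in ‘Alta’. FvH4_1g08540, at means of 2.59 CPM in ‘Alta’ and 0.0594 CPM in ‘NCGR1363’, was not tested. The counts therefore describe the list and do not measure a rate. The median difference was 0.62, and 0.02 over all genes. With the library labelled ‘Alta’ replicate 3 included, 1 member was called, lower, where 362 of 19127 genes were, and the median was −5.31.

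The gene furthest higher in ‘NCGR1363’ crowns was again FvH4_6g08720. It had 61.3, 23.3 and 48.1 CPM in ‘NCGR1363’ and 2 counts in the 2 ‘Alta’ libraries together, a ratio of 700 with a 95% exact counting interval of 194 to 5784 (edgeR FDR = 0.00034). Its crowns at 0 h had 3.10, 20.6 and 3.48 CPM in ‘Alta’ and 59.2, 79.1 and 52.5 CPM in ‘NCGR1363’, so the order of the genotypes was the same in all 4 combinations of tissue and time. FvH4_2g31130 had 1.31, 1.09 and 1.44 CPM in ‘NCGR1363’ and no count in ‘Alta’, at least 6.50-fold (edgeR FDR = 0.00185). In the other direction FvH4_6g29730 had 2.20, 3.92 and 2.25 CPM in ‘NCGR1363’ against the 25.6 and 36.7 CPM in ‘Alta’ (−3.65 ± 0.28 (SE), FDR = 0.000232, by edgeR), and FvH4_3g36920 19.2, 25.9 and 26.9 CPM against 158 and 217 CPM (−3.13 ± 0.18 (SE), FDR = 9.5e-05, by edgeR). The first 2 differences turned to −5.27 and −5.63 when the library labelled ‘Alta’ replicate 3 was added, and FvH4_6g29730 was then the 1 member called.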

How the data were processed

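Crown and leaf tissue of ‘Alta’ and ‘NCGR1363’ was profiled by strand-specific, paired-end RNASeq in untreated plants and in plants kept at 2 °C for 42 d, in 3 biological replicates each. The authors trimmed reads and mapped them with RSEM and Bowtie2 to the predicted mRNAs of the F. vesca v4.0.a2 annotation, and deposited expected counts, which were whole numbers and were used unchanged. Groups were taken from sample titles, since in the genotype field the number after NCGR increases from sample to sample. CPM were computed by column total.

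Members were selected on log2(CPM + 0.5) at 0 h as stated. The members and lists were chosen with earlier results of these data known. The genes named were the 5 with the largest score, 2 on each side of the limit, the 2 described members, the largest neighbour set (IDs within 50) and, in each comparison, at most 2 called members with the largest fitted change in each direction. Outside the interaction, those called members also needed libraries that did not overlap between the groups compared. Other IDs were not named because no name is paired with them.

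Groups were compared in R 4.3.3 with the legacy quasi-likelihood F-test of edgeR, version 4.0.16, after TMM scaling. Genes needed at least 0.5 CPM in at least 2 libraries of a comparison. P-values were adjusted by Benjamini-Hochberg across every gene in the fit, and the FDR threshold was 0.05. Log2 changes are followed by a standard error (SE), computed as the absolute log2 change divided by the square root of the F statistic. A fold against a group at 0 was set against a floor of 3 counts per library, and exact counting intervals cover counting error only. The library labelled ‘Alta’ crown 42 d replicate 3 was left out. Among comparisons with 3 or more pairs, same-numbered libraries deviated together in every pair (r over 0.1) only for leaf against crown at 42 d in ‘NCGR1363’ (r of 0.164 to 0.392), and in the 3 comparisons with ‘Alta’ crowns at 42 d, which have 2 pairs each, r was 0.210 to 0.334. The labels do not state what the numbers link, so the block was an alternative. DESeq2 (version 1.42.0) was an alternative, as were other size factors, filters, scalings and fits without single libraries. The fits of the cold response of ‘Alta’ leaves and of the interaction were tested on simulated data.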

Additional observations from a re-analysis of the deposited data

Results flagged for a closer look

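The cold responses of the leaf-specific genes differed between the genotypes in leaves by the interaction test, with 77 members called, each with a smaller fall or a larger rise in ‘NCGR1363’. Of all genes tested 10.6% were called in that direction. The untreated leaf libraries in this test took part in the choice of the members. Fits without single libraries called 49 to 107 members. Among single genes, FvH4_6g11750 was flagged for an interaction of 9.11 on the log2 scale, a fitted value that rests on no count in ‘Alta’ leaves at 42 d, and FvH4_6g08720 for one of 5.90. Outside the comparisons, the leaf-specific genes took 22.98% of the counts of replicate 3 of ‘Alta’ crowns at 42 d, as labelled, against 0.240% in the highest of the other crown libraries.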

How the results depend on the processing

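The direction of the members' median was kept under every alternative run for the 5 leaf comparisons, leaf against crown in ‘NCGR1363’ and the cold response of ‘NCGR1363’ crowns. In ‘Alta’ crowns it turned to −0.11 by column totals and to −0.13 without 42 d replicate 2, and with the library labelled replicate 3 it became −0.07 for leaf against crown in ‘Alta’ and −5.31 for genotypes in crowns. On the scale used for the choice the leaf minus crown median in ‘Alta’ stayed above 0 with that library, at 3.16. In leaves at 0 h the genotype calls were 15 in 1 fit over 23 libraries and 2 with the replicate block, and at 42 d they were 76 by DESeq2 and 114 in 1 fit over 23 libraries. Calls over all genes were 4138, 601, 4498 and 7234 in the same order. With the library labelled ‘Alta’ crown 42 d replicate 3, calls became 0 for leaf against crown in ‘Alta’, 1 for the cold response of ‘Alta’ crowns and 1 for the genotype difference in crowns, and differences reversed to −0.0285 (FvH4_6g34740), 7.70 (FvH4_1g08531), 8.50 (FvH4_4g02370), −5.27 (FvH4_6g08720) and −5.63 (FvH4_2g31130). For these comparisons the calls over all genes were then 1, 1465 and 960. Leaving out 1 library gave 46 to 144 calls in ‘NCGR1363’ leaves, 49 to 107 for the interaction, 14 to 103 for genotypes in leaves at 0 h and 1 to 72 at 42 d, and 179 to 187 in ‘Alta’ leaves. Calls over all genes ranged from 2673 to 7487, 1980 to 5596, 1272 to 6228, 570 to 5512 and 8356 to 10344 in the same order. With the replicate block the calls were 185 and 105 in ‘Alta’ and ‘NCGR1363’ leaves, 65 for the interaction, 38 for genotypes in leaves at 42 d, 192 and 200 for the tissues, and 67, 102 and 67 in crowns. For all genes the block gave 9964, 6208, 3070, 2816, 9222, 9950, 8932, 11617 and 7341 calls in that order. Scaling by column totals, added after seeing the data, moved the median of all genes by up to 0.36 (‘Alta’ leaves, where 69.3% of all calls were then higher, against 49.1%), and left 169 members lower and 7 higher there, and 81 and 13 in ‘NCGR1363’ leaves. Under it 3430 of 18435 genes were lower and 7733 higher in ‘Alta’ leaves, and 1811 and 4130 of 18442 in ‘NCGR1363’ leaves. TMM factors without the members gave 186, 83, 77, 44 and 50 calls in the leaf comparisons in the order above, with cold in ‘Alta’ first. The calls over all genes were then 10291, 5768, 3388, 3434 and 2804. Other pseudocounts and minima kept 171 to 200 of the members, and the cause of these changes was not tested. With 3 libraries a group, and ‘Alta’ crowns at 42 d with 2, members with 0.5 CPM in fewer than 2 libraries of a comparison could not be tested.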
